A study of Mesocricetus auratus with 21 samples.

Results

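The comparison described here is that of *Mov10l1*-/- with *Mov10l1*+/+ golden hamster (*Mesocricetus auratus*) testis in adults. Its members are the adult libraries, chosen by their labels, which are 4 of the 21 testis libraries of the study, and all genes with enough counts to test, which are 15761 of the 22285 genes in the table. The other libraries come from both genotypes at 0, 9, 13 and 21 days post partum (d.p.p.). Each adult library was made from the whole testis of a different animal. The *Mov10l1*+/+ animals were 65 weeks (replicate 1) and 23 weeks old (replicate 2), and the *Mov10l1*-/- animals 63 weeks (replicate 1) and 53 weeks old (replicate 2). Within each gene below, values are given in that order, in CPM, a gene's counts scaled by the TMM-normalized size of the library. The mutant line descends from a single founder female, in which CRISPR/Cas9 with pairs of guides in introns 19 and 20 removed exon 20, and heterozygous descendants were crossed to outbred wild types before the line was intercrossed. The deletion is in every cell of the animal, so the testis soma carries it too. RNA was depleted of ribosomal RNA and made into strand-specific libraries that were read as 150-nucleotide pairs. The labels' molecule field instead names polyA RNA.

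PIWI-interacting RNAs (piRNAs) are small RNAs that guide Argonaute proteins of the PIWI family to retrotransposon and other transcripts in the germ line. MOV10L1 is an RNA helicase that binds the long single-stranded precursors and feeds them to the machinery that cuts them into piRNAs. Male mice that lack it are sterile. In the adult testis, spermatogonia at the tubule wall divide and differentiate, enter meiosis as spermatocytes and become spermatids. Sertoli cells nurse them inside the tubule, peritubular smooth muscle surrounds it, and Leydig cells between the tubules make testosterone.

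The guide target sequences are shown because they define the allele on which the whole comparison rests. They are written 5′ to 3′, and the capitals mark the last 3 bases, where the motif that Cas9 needs beside its target would lie.
intron 19 target 1: gggtatcacatgacttgGGG
intron 19 target 2: ggtgttgggatcatagtgGGG
intron 20 target 1: tctccactcttccatgtgGGG
intron 20 target 2: taccattacatttgtcagGGG

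*Mov10l1* itself (ENSMAUG00000003667, MesAur1.0 scaffold KB708136.1:11073749-11134091, plus strand) was measured at 43.5 and 49.4 CPM in wild types and at 1.58 and 1.75 CPM in *Mov10l1*-/- testes. Both mutants were far below both wild types. The raw counts were 1516 and 999 against 56 and 80. The log2 fold change of *Mov10l1*-/- over *Mov10l1*+/+ was -4.79 (SE 0.168, edgeR quasi-likelihood test, Benjamini-Hochberg adjusted p = 4.6e-07). The count covers all exons of the gene and removal of exon 20 leaves the others in place, so it measures *Mov10l1* RNA and not the allele.

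The libraries held 38013001 and 21642009 counts in wild types and 34049107 and 40918552 in mutants. Animals of the same genotype resembled each other. Pearson's r of log2 CPM across genes was 0.989 between the wild types and 0.995 between the mutants, against 0.478 to 0.504 between genotypes. The wild types differed by more than 2-fold at 303 genes and the mutants at 66. The 3 genes with the highest counts have no symbol and were not called. They took 17.7% and 16.6% of the normalized counts in wild types, and 32.0% and 30.0% in mutants.

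Adult *Mov10l1*-/- testes differed from wild types at most genes. At an adjusted p below 0.01, 11720 of the 15761 genes tested, or 74.4%, were called, with 5855 higher (37.1%) and 5865 lower (37.2%). The unadjusted p was below 0.05 for 13241 genes. Against the null hypothesis of a change of at most 2-fold, 3842 were higher and 4414 lower. Both mutant libraries lay above both wild types at 7611 genes (48.3%) and below both at 6965 (44.2%). Most genes therefore crossed the threshold, and each list below has to be read against these shares and those of genes with a symbol. Of the 1013 tested genes with a symbol, 44.7% were higher and 34.2% lower, with a median log2 fold change of 0.44. Apart from *Piwil3* and *Tex101*, the genes with a symbol are those that the study called changed in mutant oocytes or in mutant testes of 0 or 9 d.p.p. The lists could hold no other genes, so their counts are not independent evidence of a direction.

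The directions differed in size. At least 4-fold changes numbered 3002 higher and 3821 lower, at least 16-fold changes 140 and 2083, and at least 64-fold changes 5 and 1220. Of the genes called lower, 2571 kept at most 10% of their wild-type level and 1144 at most 1%. Genes called lower took 58.02% and 61.6% of the normalized counts in wild types and 9.87% and 10.7% in mutants. For genes called higher the shares were 10.98% and 9.92% in wild types and 39.9% and 41.4% in mutants. The median log2 fold change of all tested genes was 0.14, and it was -0.06 with RLE size factors and 0.36 with library totals alone, so small changes depend on the scaling. In whole testis, fewer cells of a type and less RNA per cell cannot be told apart. CPM are shares of a library and do not measure RNA per cell or per testis.

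**Figure D1:**
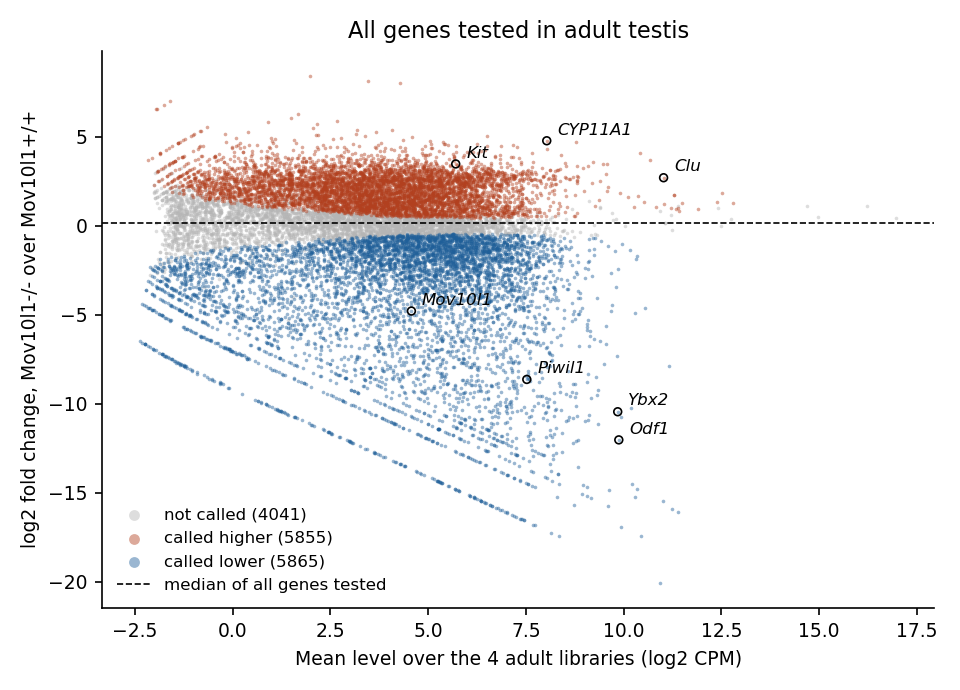
Each point is 1 of the 15761 genes tested, with its mean level over the 4 adult libraries in log2 CPM on the horizontal axis and its log2 fold change of Mov10l1-/- over Mov10l1+/+ on the vertical axis. Genes called higher (5855) form a band above the median of 0.14, while genes called lower (5865) reach further from it, and the slanted lines at the lower edge are genes with a handful of counts or none in the mutants.

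The largest losses left few counts or none in the mutants. *Odf1*, a protein of the outer dense fibres of the sperm tail, was measured at 1686 and 2071 CPM in wild types and at 0.479 and 0.415 CPM in mutants, a log2 fold change of -12.03 (SE 0.276, adjusted p = 1.3e-07, edgeR). *Fam217a* stood at 244 and 325 CPM against 0.0282 and 0.0875 CPM, with 5 counts in the mutants together. That is 4619-fold more in wild types, with a 95% interval of 1979 to 14230 that covers counting error only. *1700001C02Rik* had 105 and 118 CPM against 2 mutant counts in all, and *Satl1* 27.0 and 34.7 CPM against 1 count. The ratios were 4513 (1249 to 37270) and 2507 (449.9 to 99010). *Gm11992* (31.4 and 27.4 CPM) and *Tmem45b* (9.66 and 13.1 CPM) had no count in either mutant. Against a floor of 3 counts per library they were at least 391-fold and 152-fold lower. Among genes without a symbol, ENSMAUG00000018523 had 3688 and 4196 CPM in wild types and no count in mutants, which makes it at least 52490-fold lower. ENSMAUG00000010034 followed with 706 and 600 CPM against no count and was at least 8695-fold lower. In all, 197 of the genes called lower had no count in either mutant, and 103 of these had at least 10 CPM in wild types.

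Increases were smaller. *Cyp27a1*, a mitochondrial sterol hydroxylase, had 1.75 and 1.04 CPM in wild types and 49.7 and 41.8 CPM in mutants, a log2 fold change of 4.97 (SE 0.244, adjusted p = 2.0e-06). The potassium channel gene *Kcnk3* had 0.544 and 0.198 CPM against 11.5 and 13.8. *Tceal9* had 3.04 and 4.65 CPM against 85.2 and 86.7. For *Fmo2*, a flavin-containing monooxygenase, the values were 0.745 and 0.247 CPM against 12.3 and 11.2, and for *Shisa2* they were 0.315 and 1.04 CPM against 15.9 and 10.4. In each of these genes both mutants were above both wild types, with fitted folds of 21.4 to 31.4. Larger ratios were found in genes without a symbol. ENSMAUG00000014745 had 4 counts in the wild types together and 21.2 and 21.4 CPM in mutants, a ratio of 293 (95% interval 115 to 1077, counting error only). For ENSMAUG00000004668, with 8 wild-type counts and 30.0 and 46.2 CPM in mutants, the ratio was 263 (133 to 608).

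The piRNA pathway was lower throughout. All 19 members tested of the 20 listed were called lower, with a median log2 fold change of -4.62, and all 19 lay below both wild types in both mutants. The summed level of the list fell from 3920 and 4283 CPM to 93.1 and 86.6 CPM. Among the PIWI proteins, *Piwil1* (MIWI in mice), which carries piRNAs in spermatocytes and round spermatids, was measured at 370 and 364 CPM in wild types and at 1.16 and 0.722 CPM in mutants. Its log2 fold change was -8.63 (SE 0.234, adjusted p = 1.8e-07, edgeR). *Piwil2* and *Piwil4*, which were picked here after their values were seen, were less reduced. *Piwil2* went from 101 and 90.2 CPM to 2.62 and 2.80 CPM. *Piwil4* went from 2.38 and 2.67 CPM to 1.04 and 1.18 CPM, a log2 fold change of -1.17. *Piwil3*, a PIWI gene that hamsters have and mice lack, had 6 and 3 counts against 3 and 7 and was not tested.

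Partners and scaffolds of the PIWI proteins followed the same pattern. *Mael*, a germ-granule protein, had 1295 and 1595 CPM in wild types against 8.15 and 5.20 CPM in mutants, and *Ddx4* (VASA), a germ-cell RNA helicase, 528 and 615 CPM against 4.23 and 3.37 CPM. Their log2 fold changes were -7.76 (SE 0.301) and -7.24 (SE 0.204). The Tudor proteins read the methylated arginines of PIWI proteins. *Tdrd1* and *Tdrd9*, also chosen after their values were seen, kept 0.692% and 0.572%, and 1.77% and 1.46%, of the wild-type mean. *Tdrd7*, which remodels the granules later, was the Tudor gene with the smallest change of those named. It stood at 319 and 281 CPM against 18.4 and 19.4 CPM, a log2 fold change of -3.99 (SE 0.142). Members with the smallest losses were *Piwil4*, *Btbd18* and *Morc1*, whose mutant means were between 37.2% and 46.8% of the wild-type mean in each library. *Btbd18* drives transcription of pachytene piRNA precursors, and *Morc1* represses retrotransposons in male germ cells. *Btbd18* and *Morc1* were chosen after their values were seen. Without mutant replicate 1, 17 of the 19 were called lower, and without mutant replicate 2, 16.

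Meiotic genes were lost to a like extent. Of 16 members tested, 15 were called lower and none higher, with a median of -4.71 (the median of all genes was 0.14). The summed level was 1589 and 1922 CPM in wild types and 76.6 and 66.2 CPM in mutants. *Syce1*, of the central element of the synaptonemal complex that holds homologous chromosomes together, had 72.5 and 63.5 CPM in wild types and 0.930 and 0.656 CPM in mutants, a log2 fold change of -6.44 (SE 0.209). *Sycp1*, its transverse filament, had 218 and 305 CPM against 15.7 and 13.8 CPM, and *Smc1b*, the meiotic cohesin subunit, 223 and 334 CPM against 14.7 and 11.9 CPM. Their changes, -4.15 (SE 0.205) and -4.39 (SE 0.243), left 4.27% to 5.996% of the wild-type level. *Meioc*, which keeps germ cells in the meiotic programme, went from 234 and 282 CPM to 5.61 and 5.36 CPM. *Shoc1*, a recombination factor and the member that was not called, had 6.79 and 8.65 CPM against 5.69 and 4.99 CPM (log2 fold change -0.53, adjusted p = 0.047).

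Among germ-cell RNA-binding proteins, of 13 tested, 10 were lower and none higher, with a median of -6.09. *Ybx2*, a Y-box protein that stores mRNAs in round spermatids, had 1840 and 1843 CPM in wild types and 1.30 and 1.33 CPM in mutants, a log2 fold change of -10.45 (SE 0.215, adjusted p = 1.3e-07). *Ddx25*, an RNA helicase needed to finish spermatid formation, had 440 and 420 CPM against 2.17 and 1.86. *Rbm44*, a protein of the bridges between germ cells, went from 424 and 426 CPM to 6.26 and 6.21. *Dazl*, a translational regulator of spermatogonia and spermatocytes chosen after its values were seen, kept 11.01% and 10.5% of the wild-type mean. *Cpeb1*, *Lin28a* and *Elavl2* were not called. For *Cpeb1*, also picked by its values, the levels were 17.2 and 17.3 CPM against 19.7 and 20.1 CPM.

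All 18 genes of the late germ-cell list were lower, with a median of -6.45, the lowest of the 22 lists. Their summed level went from 5282 and 5772 CPM to 59.3 and 60.1 CPM. Besides *Odf1*, the sperm anion transporter gene *Slc26a8* had 289 and 268 CPM against 1.49 and 1.29 CPM (log2 fold change -7.65, SE 0.173). *Hspa4l*, a heat-shock protein of the HSP110 family, went from 1330 and 1318 CPM to 13.8 and 15.7 CPM, and the testis-specific histone gene *H2bc1* from 300.1 and 262 CPM to 3.21 and 3.08 CPM. The median member kept 1.21% and 1.14% of its wild-type level in the mutants, against 4.49% and 3.39% in the piRNA list and 4.195% and 3.50% in the meiotic list. Some members (*Rpl10l*, *Rpl39l*, *Usp26*) have close copies between which multimapping reads were divided, and their values are uncertain for that reason.

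**Figure D2:**
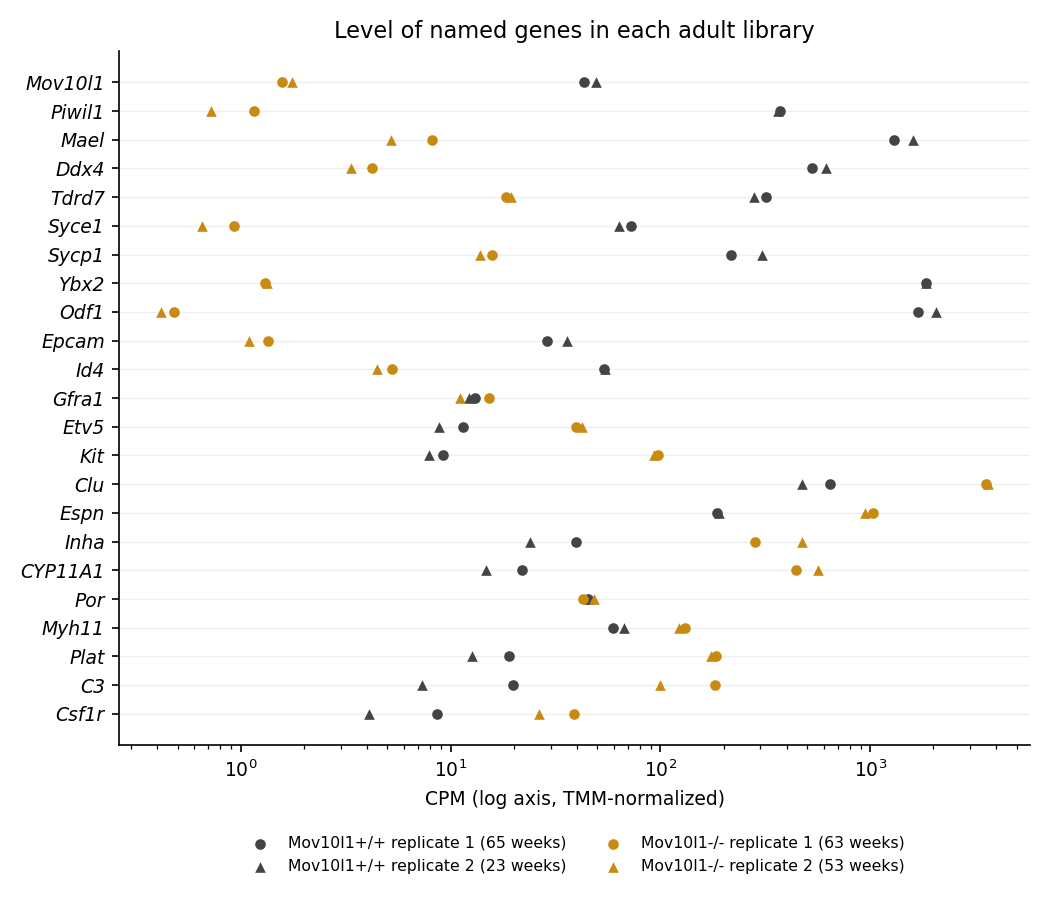
Each row is a gene and each symbol 1 of the 4 adult libraries, with its level in CPM on a log axis. Germ-cell genes from Mov10l1 to Id4 have both mutants far left of both wild types, Gfra1 and Por overlap, and genes from Etv5 to Csf1r other than Por have both mutants to the right.

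The spermatogonial list held genes of both directions. Of 20 members tested, 5 were higher, 5 lower and 10 not called, with a median log2 fold change of -0.08. The summed level was 156 and 158 CPM in wild types and 198 and 191 CPM in mutants. *Kit*, the receptor of differentiating spermatogonia that Leydig and interstitial mast cells also carry, was measured at 9.20 and 7.91 CPM in wild types and at 97.3 and 92.8 CPM in mutants. This was the largest increase in the list, at 3.47 on the log2 scale (SE 0.142, adjusted p = 9.1e-07, edgeR). In CPM it exceeded the rise of the summed level, so the other members together were lower in mutants. *Etv5*, a transcription factor of stem cell renewal that Sertoli cells also express, had 11.4 and 8.80 CPM against 39.6 and 42.2 CPM. *Zbtb16*, *Fgfr3* and *Ret*, which mark undifferentiated spermatogonia, were the other 3 called higher, with log2 fold changes of 1.83, 1.55 and 1.37. Their wild-type levels were low, as for *Zbtb16* at 1.43 and 2.37 CPM against 5.72 and 7.5 CPM.

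The genes of that list called lower included *Id4*, an inhibitor of differentiation linked to stem cells, at 53.6 and 54.6 CPM in wild types and 5.27 and 4.48 CPM in mutants (log2 fold change -3.47, SE 0.149). *Epcam*, an epithelial adhesion molecule, had 28.8 and 36.1 CPM against 1.35 and 1.09 CPM (-4.73, SE 0.212). *Tfap2c*, *Pax7* and *Taf4b* were the others, at -2.61, -2.35 and -0.96. *Gfra1*, the coreceptor of the stem cell niche factor GDNF, overlapped between genotypes, with 13.1 and 12.2 CPM in wild types and 15.2 and 11.1 CPM in mutants (log2 fold change 0.05, SE 0.193, adjusted p = 0.81). *Sohlh1*, which starts differentiation, had 3.87 and 2.32 CPM against 2.82 and 2.56 CPM, and *Sall4* 1.58 and 1.19 CPM against 2.88 and 2.62 CPM, not called at an adjusted p of 0.013. *Gfra1*, *Sohlh1*, *Sall4* and the members named by log2 fold change alone were picked after their values were seen. Library totals alone gave 6 higher and RLE size factors 4, and without mutant replicate 1 the counts were 4 higher and 3 lower.

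Sertoli cell genes rose together. All 9 members with an identifier, of 15 listed, were higher in both mutants, with a median of 2.69. *Clu*, clusterin, a secreted chaperone, was measured at 641 and 475 CPM in wild types and at 3550 and 3660 CPM in mutants (log2 fold change 2.69, SE 0.209, adjusted p = 1.9e-05). *Espn*, an actin bundler of the junctions between Sertoli cells and spermatids, had 186 and 190.0 CPM against 1029 and 944 CPM, and *Defb119*, a defensin, 166 and 125 CPM against 787 and 720.0 CPM. *Inha*, the inhibin alpha subunit, had the largest change, from 39.7 and 24.0 CPM to 284 and 474 CPM (log2 fold change 3.56, SE 0.332). *Inhbb*, the beta B subunit of inhibin B, had the smallest, at 13.5 and 11.8 CPM against 45.4 and 36.2 CPM (1.69, SE 0.166). The other members lay between these, at 2.67 for *Sox8* and 3.07 for *Kitl*, the ligand of KIT, both chosen after their values were seen. The level of the list, as the median of its members relative to the wild-type mean, was 642% and 656% in the mutants.

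Of the Leydig and steroid list 2 of 9 genes had an identifier, too few to describe the cell type. *CYP11A1*, the mitochondrial enzyme that cuts the cholesterol side chain at the start of steroid synthesis, was measured at 21.98 and 14.8 CPM in wild types and 444 and 565 CPM in mutants. It was 27.2-fold higher (log2 fold change 4.77, SE 0.247, adjusted p = 2.6e-06). *Por*, the electron donor of microsomal P450 enzymes, overlapped between genotypes at 45.4 and 45.6 CPM against 42.8 and 48.2 CPM. In the cholesterol list, 5 of 8 genes had an identifier, and 2 were higher, 2 lower and 1 not called. The late enzyme *Ebp* had 27.8 and 24.6 CPM against 182 and 189 CPM (2.82, SE 0.131). *Cyp51*, a lanosterol demethylase with a strong spermatid form, had 302 and 312 CPM against 178 and 169.5 CPM (-0.82, SE 0.119, adjusted p = 0.00051). *Idi1* fell by 0.76 on the log2 scale, a call lost without mutant replicate 2, and *Hmgcs1*, an early enzyme, had 106 and 125 CPM against 110.0 and 109 CPM. The pathway thus had no common direction.

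Smooth muscle and peritubular genes were higher or not called. Of 12 tested, 7 were higher and none lower, with a median of 1.03. *Svil*, supervillin, changed most, from 13.8 and 18 CPM to 153 and 138 CPM (3.20, SE 0.168). *Myh11*, smooth muscle myosin heavy chain, had 59.6 and 67.3 CPM against 132 and 122 CPM, a 2.00-fold difference, and its kinase *Mylk* 9.49 and 8.95 CPM against 32.8 and 32.4 CPM. *Pgm5*, an actin-junction protein, had 4.47 and 2.27 CPM against 14.3 and 20.8 CPM. The remaining 5 had log2 fold changes from -0.53 (*Flnc*) to 0.77 (*Speg*).

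The extracellular matrix list split. Of 33 genes, 18 were higher, 5 lower and 10 not called, with a median of 1.28. *Col1a1*, the main fibrillar collagen chain, had 2.23 and 1.88 CPM in wild types and 42.3 and 33.2 CPM in mutants (log2 fold change 4.18, SE 0.204, adjusted p = 2.0e-06). *Col18a1*, a basement membrane collagen, had 111 and 84.1 CPM against 553 and 566 CPM, and *Ecm1* 13.1 and 10.9 CPM against 99.1 and 136 CPM. Against the direction of most of the list, *Svep1* had 69.5 and 48.4 CPM against 5.41 and 3.50 CPM (-3.74, SE 0.272). *Tnc*, tenascin C, had 8.20 and 8.41 CPM against 0.761 and 0.394 CPM (-3.87, SE 0.326), and *Col12a1* 9.74 and 10.1 CPM against 1.49 and 1.31 CPM (-2.82, SE 0.207). *Fras1*, a basement membrane protein, had 8.14 and 16.3 CPM against 1.13 and 1.75 CPM. *Adamts16*, the fifth gene called lower, had 0.774 and 0.791 CPM against 0.282 and 0.0875 CPM, and its call was lost in 6 of the 9 alternatives.

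Endothelial genes with an identifier, 8 of 12, were 6 higher and 2 not called, with a median of 2.21. *Plat*, tissue plasminogen activator, which Sertoli cells also make, had 18.9 and 12.7 CPM in wild types and 185 and 173 CPM in mutants (3.49, SE 0.204). The caveolin genes *Cav1* (4.13 and 3.36 CPM against 22.2 and 23.1 CPM) and *Cav2* (1.35 and 1.19 against 9.84 and 8.37 CPM) were higher too, and both are expressed by other stromal cells. *Apln* had 9 counts in the wild types together and was 18.9-fold higher in mutants (95% interval 9.97 to 41.4, counting error only). *Flt1*, a VEGF receptor, had 2.58 and 2.62 CPM against 5.36 and 5.51 CPM (1.06, SE 0.209, adjusted p = 0.0024, edgeR), and *Tm4sf1* had 0.459 and 0.445 CPM against 1.72 and 1.53 CPM (1.83, SE 0.319). Both were called higher, but the call of *Flt1* did not hold in every fit that left out 1 library, and that of *Tm4sf1* was lost with DESeq2. *Vwf* and *S1pr1*, the members not called, overlapped between genotypes. These 4 genes were chosen after their values were seen. *Vwf* had 3.27 and 2.82 CPM against 3.04 and 2.91 CPM (log2 fold change -0.04, SE 0.231).

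The immune list divided evenly, with 4 of 13 tested genes higher, 4 lower and 5 not called (median -0.17). *Csf1r*, the receptor that macrophages depend on, had 8.63 and 4.11 CPM in wild types and 38.6 and 26.5 CPM in mutants (2.32, SE 0.344, adjusted p = 0.00056). *Cytip* had 6.82 and 5.88 CPM against 52.3 and 45.4 CPM. *Bin2*, by contrast, went from 52.9 and 48.5 CPM to 1.86 and 1.36 CPM (-4.99, SE 0.195), and the chemokine gene *Cxcl13* from 16.1 and 22.2 CPM to 1.95 and 1.22 CPM (-3.61, SE 0.286). *Cd3e*, the T cell marker of the list, had at most 6 counts in any library and was not tested. Of the complement genes, 5 of 6 were higher and 1 lower, with a median of 2.92. *C3*, on which the pathways converge, had 19.9 and 7.27 CPM against 182 and 99.5 CPM (3.34, SE 0.485), and *C7*, of the membrane attack complex, 7.51 and 2.72 CPM against 61.1 and 53.1 CPM. For both, the 65-week wild type was above the 23-week wild type by more than 2-fold, although neither reached the mutants. *Cd46*, a complement regulator that rodents express on the sperm acrosome, went the other way, from 55.3 and 82.3 CPM to 0.451 and 0.525 CPM (-7.12, SE 0.289).

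Of the mesothelial and epithelial list, 7 of 13 tested genes were higher and 2 lower, with a median of 1.98. *Krt19* had 18.1 and 12.7 CPM in wild types and 139 and 117 CPM in mutants (3.04, SE 0.202), and *Lsr*, a protein of tricellular junctions, 15.2 and 11.9 CPM against 109 and 101 CPM. *Lrrn4*, with 10 wild-type counts, was 8.71-fold higher (4.74 to 18.2, counting error only). *St14*, matriptase, had 24.9 and 16.3 CPM against 0.874 and 0.569 CPM (-4.86, SE 0.320), and *Krt7* 1.89 and 1.88 CPM against 0.818 and 0.787 CPM, a call lost in 6 of 9 alternatives. Without any one of the 4 libraries in turn, 5 to 6 were higher and 1 lower.

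**Figure D3:**
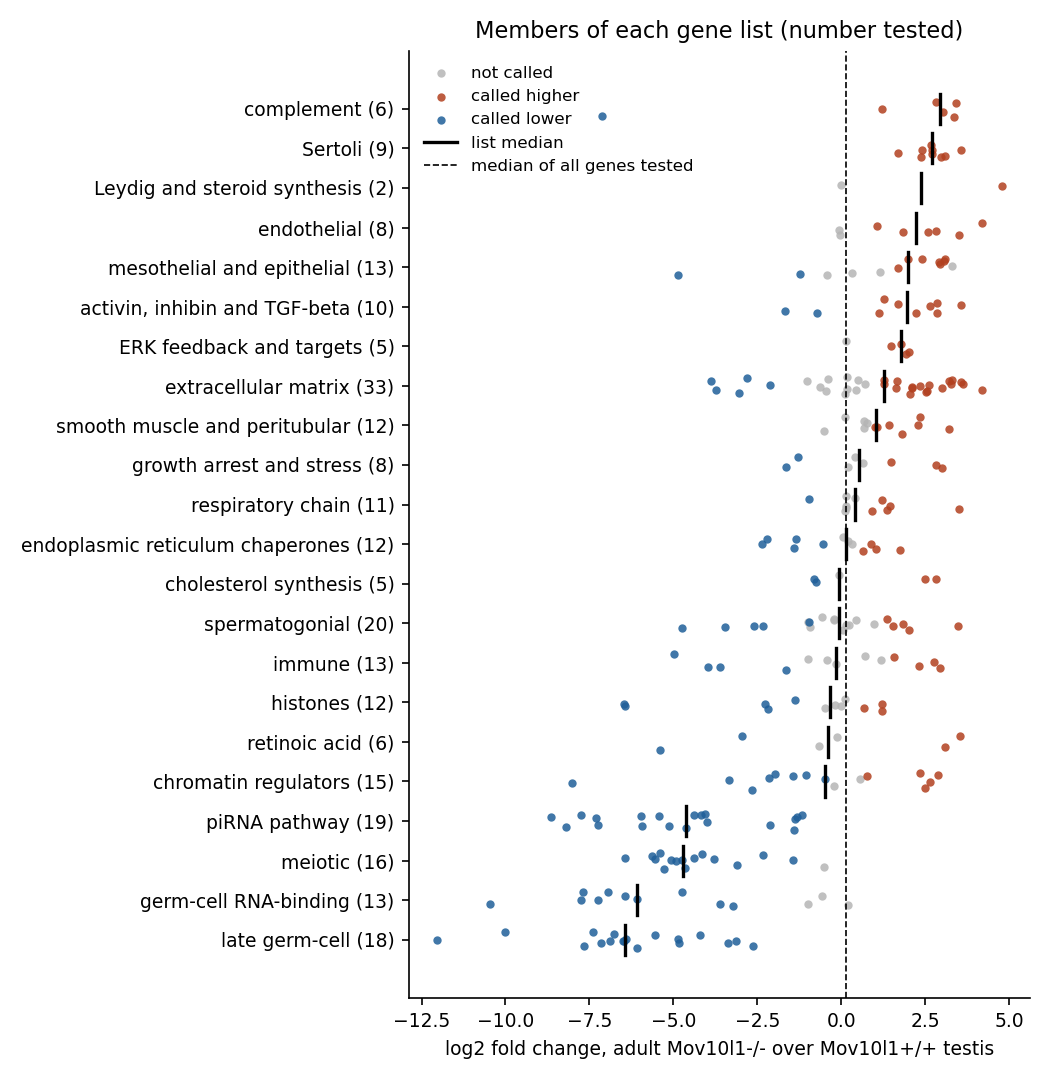
Each point is a tested member of 1 of the 22 gene lists, placed by its log2 fold change of Mov10l1-/- over Mov10l1+/+, with the list median as a bar and the median of all genes (0.14) as a dashed line. The 4 lists with medians between -6.45 and -4.62 are late germ-cell, RNA-binding, meiotic and piRNA genes, the Sertoli list lies wholly to the right, and the spermatogonial list straddles the dashed line.

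In the activin, inhibin and TGF-beta list, 8 of 10 tested genes were higher and 2 lower, with a median of 1.95. *Inha* and *Inhbb* also belong to the Sertoli list. *Fstl3*, which binds and blocks activin, had 17.9 and 10.4 CPM in wild types and 34.0 and 34.9 CPM in mutants (1.27, SE 0.242, adjusted p = 0.0021). *Acvr2b*, an activin type II receptor, had 2.58 and 2.42 CPM against 0.592 and 0.962 CPM (-1.67, SE 0.323). *Tgfbr3*, betaglycan, a coreceptor of inhibin, had 28.8 and 26.5 CPM against 16.8 and 16.99 CPM (-0.71, SE 0.130). The call of *Acvr2b* was lost without mutant replicate 1, and that of *Tgfbr3* without either mutant or with library totals alone. Of the ERK feedback genes, which are transcribed when the pathway is active, 4 of 5 were higher and 1 not called (median 1.77). *Dusp6*, the ERK phosphatase, had 5.90 and 4.15 CPM against 17.9 and 16.9 CPM. *Spred1* had 9.09 and 9.10 CPM against 26.4 and 24.3 CPM, and *Spred2* 4.73 and 3.76 CPM against 15.4 and 17.01 CPM.

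Retinoic acid starts spermatogonial differentiation and meiosis, and the enzyme genes of its list were called in both directions. *Aldh1a2*, the synthesis enzyme of spermatocytes, had 102 and 90.7 CPM in wild types and 2.62 and 1.95 CPM in mutants (-5.41, SE 0.191, adjusted p = 4.6e-07). *Rdh10*, which makes its substrate, had 79.5 and 81.2 CPM against 10.0 and 10.8 CPM (-2.94, SE 0.127). *Aldh1a3* had 14.9 and 14.1 CPM against 123 and 124 CPM (3.09, SE 0.124), and *Aldh1a7* 21.9 and 19.1 CPM against 217 and 258 CPM (3.53, SE 0.157). The 2 receptor and binding-protein genes of the list, *Rarg* and *Crabp1*, were not called. The counts were thus 2 higher and 2 lower of 6, near the shares of all genes (37.1% and 37.2%).

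Chromatin regulators were 5 higher and 8 lower of 15, with a median of -0.50. *Chd5*, a remodeller of the histone-to-protamine exchange, had 256 and 302 CPM in wild types and 0.930 and 1.20 CPM in mutants (-8.01, SE 0.207). *Tasor2* had 133 and 145 CPM against 49.6 and 52.1 CPM, and *Trim28*, the corepressor of KRAB zinc finger proteins at retrotransposons, 222 and 184 CPM against 93.7 and 104 CPM (-1.04, SE 0.141). Genes above wild type were *Ezh1*, a subunit of Polycomb complexes (10.9 and 10.7 CPM against 62.5 and 57.5 CPM), *Suv39h1*, a histone H3 lysine 9 methyltransferase (16.2 and 13.1 CPM against 86.8 and 96.5 CPM), and *Rcor2* (7.28 and 7.71 CPM against 37.6 and 38.1 CPM). *Tet1*, a methylcytosine dioxygenase, had 1.26 and 1.73 CPM against 11.4 and 10.3 CPM (2.88, SE 0.233). *Kmt5a* rose by 0.76 on the log2 scale, a call lost without mutant replicate 1. For histone genes the counts were 3 higher, 5 lower and 4 not called of 12. *H2bc1* and *Macroh2a2* (chosen after its values were seen) were lowest, at -6.48 and -6.45. *H2aw* had 207 and 116 CPM against 37.2 and 34.0 CPM, and the linker histone gene *H1f1* 139 and 112 CPM against 52.0 and 43.4 CPM. *H2bc18* (43.5 and 32.5 CPM against 101 and 76.3 CPM), *H2aj* (1.21) and *H1f4* (0.69) were called higher. The call of *H1f4* was lost in 6 of 9 alternatives. Histone genes are near-identical copies, and reads divided among them make single genes uncertain.

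The endoplasmic reticulum chaperones were 4 higher and 5 lower of 12, with a median of 0.13. *Hspa5* (BiP), the main chaperone of the compartment, had 729 and 783 CPM in wild types and 942 and 933 CPM in mutants, which did not pass the test (0.31, SE 0.139, adjusted p = 0.074). *Hsp90b1* had 807 and 805 CPM against 1592 and 1699 CPM (1.03, SE 0.148), and *Sdf2l1* 39.8 and 29.4 CPM against 6.65 and 6.82 CPM (-2.36, SE 0.184). *Pdia4* rose by 0.88, *Pdia6* by 0.66 and *Cnpy2* by 1.75 on the log2 scale. The call of *Pdia6* was lost with RLE size factors and without mutant replicate 2, and that of *Cnpy2* with DESeq2. Respiratory chain genes were 5 higher and 1 lower of 11 (median 0.41, against 0.44 for tested genes with a symbol). *Cox7b* had 1.63 and 0.742 CPM against 15.98 and 12.6 CPM (3.51, SE 0.335), and the mitochondrial *ND6* 37.3 and 52.5 CPM against 122 and 124 CPM. *Atp5j2* was not called (132 and 118 CPM against 152 and 124 CPM), while *Usmg5*, a small subunit of ATP synthase, fell by 0.97 on the log2 scale, a call lost without mutant replicate 2. Growth arrest genes were 3 higher and 2 lower of 8. *Gadd45a*, a DNA damage response gene, had 3.78 and 3.36 CPM against 31.5 and 26.4 CPM (3.01, SE 0.174), and *Ddit4*, an mTOR inhibitor, 21.0 and 16.96 CPM against 139.5 and 127 CPM. The cell cycle inhibitors *Cdkn1c* (18.9 and 11.4 CPM against 6.23 and 3.52 CPM) and *Cdkn2c* (7.51 and 6.78 CPM against 2.88 and 2.97 CPM) were lower. *Tp53inp2* had 46.2 and 57.7 CPM against 69.1 and 67.6 CPM, not called.

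The adult difference was set against that of the same genotypes at 21 d.p.p., when the first wave of spermatogenesis has reached meiosis. No library is shared between the ages. At 21 d.p.p. 17.1% of tested genes were called higher and 20.9% lower. Of the 3102 genes called lower there, 3004 were tested in adults, where 2346 were lower and 122 higher (median -2.48). Of the 2535 called higher, 2521 were tested, with 2099 higher and 171 lower (median 2.35). Whether the genotype difference itself changed with age was tested as an interaction over the 8 libraries, which called 40.7% of 16406 genes, with 22.3% more positive in adults and 18.4% more negative. The split between these directions depended on the test, the scaling, the filter and the libraries. DESeq2 gave 2995 more positive and 3849 more negative in place of 3660 and 3024. Within edgeR, RLE size factors gave 2891 and 3405, and no filter on low counts 3287 and 3910.

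Most of the spermatogonial list differed between the ages. At 21 d.p.p. 14 of 19 tested members were lower and 1 higher, with a median of -4.29, against a median of 0.05 for the same 19 in adults. The interaction was more positive in adults for 15 of the 20 members and more negative for 1, and for 14 to 15 and 1 to 2 under the 14 alternatives. *Kit* was measured at 41.6 and 41.5 CPM in wild types of 21 d.p.p. and at 29.9 and 33.3 CPM in mutants, and its interaction was 3.84 (SE 0.207, adjusted p = 2.7e-06). *Sall4* had 13.2 and 10.7 CPM against 0.203 and 0.204 CPM at 21 d.p.p., and an interaction of 6.79 (SE 0.421). *Sohlh1* had 20.4 and 33.4 CPM against 0.254 and 0.136 CPM, and an interaction of 6.98 (SE 0.556). For *Gfra1* the younger values were 3.63 and 2.84 CPM against 0.355 and 0.454 CPM, and the interaction was 2.94 (SE 0.382). CPM were scaled within each age, so levels at the 2 ages can be compared only roughly. Mutant levels of these 4 genes were higher in adults than at 21 d.p.p. in each library. Wild-type levels had moved as well, up for *Gfra1* and down for the other three, and what the remaining cells are was not tested. *Epcam* was the exception, with an interaction of -6.57 (SE 1.06). Its mutants of 21 d.p.p. were far apart, at 1.12 and 10.2 CPM.

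In the other germ-cell lists the adult loss was often the smaller. The interaction was more positive in adults for 12 of 16 meiotic genes and more negative for none, for 9 and none of 13 RNA-binding genes, and for 11 and 1 of 19 piRNA genes. Under the 14 alternatives the first counts were 10 to 12, 7 to 9 and 8 to 12. *Sycp1* had 538 and 403 CPM in wild types and 0.964 and 1.11 CPM in mutants at 21 d.p.p., against 15.7 and 13.8 CPM in adult mutants. Its interaction was 4.63 (SE 0.351, adjusted p = 1.3e-05). *Piwil2* had 179 and 133 CPM against 0.101 and 0.295 CPM, and an interaction of 4.22 (SE 0.401). *Btbd18*, with 27.2 and 22.7 CPM against 0.101 and 0.0908 CPM, had an interaction of 6.64 (SE 0.394). *Mov10l1* was also less reduced in adults. At 21 d.p.p. it had 124 and 115 CPM in wild types and 0.101 and 0.114 CPM in mutants, and its interaction was 5.22 (SE 0.321, adjusted p = 4.4e-06). *Tdrd7* was the piRNA gene that went the other way (-1.38). Late germ-cell genes had no common direction, with 5 more positive and 6 more negative of 18. Among those more negative were *Slc26a8* (-3.27, SE 0.679) and *Hspa4l* (-1.52, SE 0.327).

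In the soma, the Sertoli list had a median of 1.499 at 21 d.p.p. and 2.69 in adults, with 2 of 9 members more positive in adults (*Espn*, 1.57, and *Sox8*, 1.28). That count is near the share of all genes tested for the interaction that were more positive (22.3%). Smooth muscle genes were more positive for 6 of 12. *CYP11A1* was higher at both ages, and more so in adults (interaction 2.11, SE 0.342, adjusted p = 0.00076). Some named genes were called in opposite directions at the 2 ages. *Tnc* was higher in mutants at 21 d.p.p. (2.09 and 2.67 CPM against 6.34 and 6.18 CPM) and lower in adults, and *Cdkn1c* likewise (8.69 and 10.1 CPM against 44.6 and 48.8 CPM). *Fstl3* was lower at 21 d.p.p., with 19.2 and 15.99 CPM against 3.40 and 5.99 CPM, and higher in adults.

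**Figure D4:**
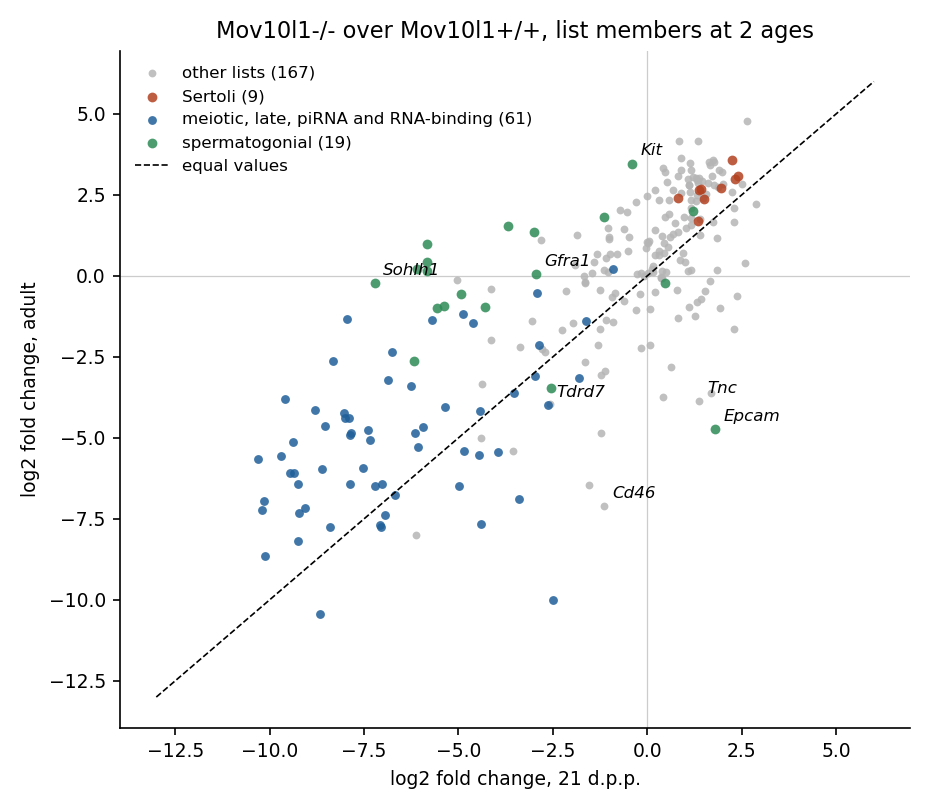
Each point is a list member tested at both ages, with the log2 fold change of Mov10l1-/- over Mov10l1+/+ at 21 d.p.p. on the horizontal axis and in adults on the vertical axis, and the dashed line marks equal values. Most of the 19 spermatogonial genes lie far above the line near 0 on the adult axis, most of the 61 genes of the other germ-cell lists lie below 0 on both axes, and the 9 Sertoli genes are above 0 on both.

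Genes that mark the first wave were followed into adults by their timing in wild types of 13 and 21 d.p.p., libraries that the adult comparison does not use. Of genes with at least 1 CPM, 415 rose by at least 4-fold between these ages, and all were tested in adults. There 391 were lower in mutants and 22 higher, with a median log2 fold change of -7.39 (-7.33 with the 5 genes at no mutant count placed at their bound), or 0.599% of the wild-type level. Of 34 genes that fell as much, 32 were tested in adults, where 19 were higher and 3 lower (median 1.93). The background was 37.1% and 37.2% in all genes.

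**Figure D5:**
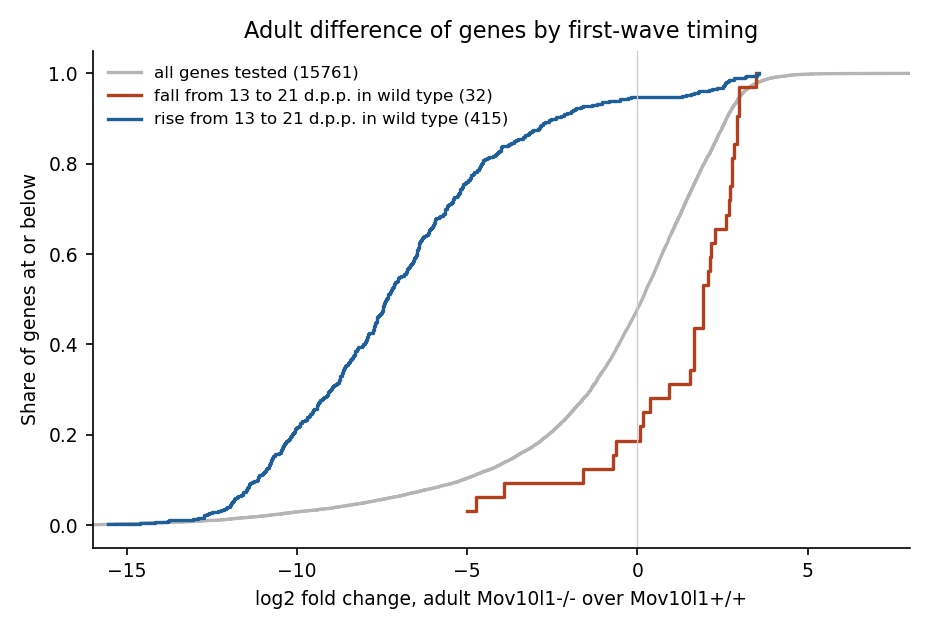
The lines give the share of genes at or below each adult log2 fold change of Mov10l1-/- over Mov10l1+/+, for all 15761 genes tested and for genes that rose (415) or fell (32) by at least 4-fold from 13 to 21 d.p.p. in wild types. The line of the rising genes is far left of that of all genes, with a median of -7.39, and that of the falling genes is to its right over most of the range, with a median of 1.93.

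Genes called at the youngest ages went both ways in adults. At 0 d.p.p. 1.0% of genes were called higher and 0.931% lower. Of 149 called higher that were tested in adults, 78 were lower and 32 higher there (median -1.10), and of 133 called lower, 52 were lower and 49 higher (median -0.18, and 0.74 for genes called lower at that age by DESeq2). At 9 d.p.p., where both mutant libraries carry the code of 1 animal, 0.559% were called higher and 3.19% lower. These calls left out wild-type replicate 3, the only wild type of that age whose animal code begins like that of the mutant. Genotype and code therefore cannot be told apart in them. Of 73 called higher, 38 were higher and 12 lower in adults (median 1.13), and of 475 called lower, 229 were lower and 107 higher (median -1.02). With all 3 wild types of 9 d.p.p. the genes called higher there numbered 9, and the adult median over the 7 tested was -0.93. Those called lower there numbered 54, and of 53 tested in adults 29 were lower and 7 higher (median -1.38). At 13 d.p.p., where the smallest library held 3550217 counts, 0.121% were called lower, and of these 16 genes 7 were lower in adults and 2 higher, while none was called higher there. Same-numbered wild-type and mutant libraries of that age carry animal codes that begin alike, which the fit did not use.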

How the data were processed

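RNA-seq of whole testes was aligned by the authors to MesAur1.0 with STAR 2.7.3a and counted over Ensembl exons with featureCounts 2.0.0, by strand, with multimapping and overlapping reads as fractions. The deposited estimated counts are not normalized. Here they were rounded and fitted over the 4 adult libraries with edgeR 4.0.16 (R 4.3.3): TMM, filterByExpr and the quasi-likelihood test, with Benjamini-Hochberg adjusted p below 0.01. That departs from the study's DESeq2, run as an alternative (1.42.0). With 2 animals a genotype the fit has 2 residual degrees of freedom. The test draws each gene's spread between these animals toward that of other genes, and p values depend on both. The interaction was fitted over the adult and 21 d.p.p. libraries together, while CPM were scaled within each age.

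Members and lists were chosen with earlier results of these data known. Symbols, nearly all from the study's supplementary tables of genes called changed in mutant oocytes or young testes, cover 1050 genes, 1013 of them tested, which were 44.7% higher and 34.2% lower. The text names *Mov10l1*, up to 4 members a list by largest change or mean CPM plus members called against their list, the 6 largest changes each way of at least 10 CPM, and 2 genes without a symbol each way. A gene that this rule also names is not reported here. The 65-week to 23-week range in wild types is not matched in mutants (63 and 53 weeks). The labels do not state whether replicate numbers pair the adult animals, and the main fit did not pair them. Gene lengths were not used, so levels are not compared between genes. Figures used Python 3.11.15 and matplotlib 3.10.9.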

Additional observations from a re-analysis of the deposited data

Results flagged for a closer look

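The genotype difference of 3660 genes was more positive in adults than at 21 d.p.p. and that of 3024 genes more negative, by the interaction of genotype and age (edgeR quasi-likelihood test over 8 libraries, adjusted p below 0.01). Among the named genes, 7 were called in opposite directions at the 2 ages and had a called interaction. More negative in adults were *Cyp51* (interaction -2.15 on the log2 scale), *Tnc* (-5.25), *Usmg5* (-2.10), *Tgfbr3* (-2.16) and *Cdkn1c* (-3.97), each higher in mutants at 21 d.p.p. and lower in adults. More positive were *H2bc18* (2.22) and *Fstl3* (3.11), lower at 21 d.p.p. and higher in adults. The wild-type CPM of these genes, scaled within each age, differed between the ages as well. For *Cyp51* they were 71.1 and 78.2 CPM at 21 d.p.p. and 302 and 312 CPM in adults.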

How the results depend on the processing

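No gene called in adults was called in the opposite direction under any alternative, and 9684 of the 11720 (4712 higher, 4972 lower) were called without each library in turn. Without 1 library, 5078 to 5679 genes were higher and 5276 to 5891 lower. The counts were 5098 and 6060 with DESeq2, 5318 and 6303 with RLE size factors, 6569 and 5403 with library totals alone, and 3842 and 4414 against a 2-fold change. Across genes, log2 ratios between the wild types and between the mutants had r = 0.0994. That value cannot show whether replicate numbers pair animals. Adult animal codes begin with M in replicate 1 and with So in replicate 2. The replicate block gave 5828 and 5809. Age in weeks as a covariate gave 6003 and 5998.

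The interaction depended more on the libraries. Without 1 library 4611 to 6482 genes were called, 2069 to 3029 more positive in adults and 2300 to 3453 more negative. The first count was 2069 and 2217 without mutant replicate 1 or 2 of 21 d.p.p., 2371 without wild-type replicate 2 of 21 d.p.p., and 2439 and 2438 without adult mutant replicate 1 or 2. With library totals alone 1750 were more negative, and with DESeq2 43.8% of calls were more positive against 54.8%. The replicate block gave 3099 and 2861. At 21 d.p.p. this block did not follow the animal codes, as those of wild-type replicate 2 and mutant replicate 1 begin alike.

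The scaling moved the level left in mutants. The list median was 83.3% with RLE size factors and 111.6% with library totals alone for spermatogonial genes, 3.33% and 4.46% for meiotic, 1.27% and 1.71% for RNA-binding, 0.999% and 1.34% for late germ-cell and 561.9% and 754.8% for Sertoli genes. Of the 112 named genes, 106 to 111 kept their call and direction under each alternative and none reversed.

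Adult medians of genes called at younger ages moved with how those were called. With DESeq2 they were -0.79 and 0.74 for genes higher and lower at 0 d.p.p., -0.44 for genes lower at 9 d.p.p. and -1.42 for genes lower at 13 d.p.p. With all 3 wild types of 9 d.p.p. they were -0.93 (higher) and -1.38 (lower). Genes that rose in wild types by at least 2-fold or 8-fold had medians of -5.20 and -8.81. Only 3 genes fell by at least 8-fold, too few to describe a class, and their median was 1.55. The cause of these shifts was not tested. Depth limits low genes. A gene without a mutant count is given as a bound, and a single cell type cannot be counted from whole testis.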
